A study of Homo sapiens with 16 samples.

Results

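Protein tyrosine phosphatases remove phosphate from tyrosine and so oppose tyrosine kinases. The 10 genes described here, out of 58051 identifiers in the deposited table, encode the cytoplasmic phosphatases PTPN1, PTPN2, PTPN3, PTPN4, PTPN6, PTPN7, PTPN11, PTPN12 and PTPN22 and the transmembrane phosphatase PTPRC (CD45). They were taken by gene symbol. PTPN3 was selected on measured values, namely its response to an inhibitor at high MYC and the difference between its responses at the MYC levels, so its values are a description and carry no test. The other 9 were taken as relatives of PTPN3, with results of these data known. All 10 had a mean of at least 10 normalized counts over the 16 libraries, the minimum for the fit.

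RNA was measured in the human B cell line P493-6, whose MYC transgene is shut down by doxycycline and whose Epstein-Barr virus factor EBNA2 works only when oestrogen is present. Cells at high MYC were kept in normal medium without additives, and cells at medium MYC were given 0.1 µg/mL doxycycline with 1 µM beta-estradiol, starting 24 h before treatment. Each kind of culture then received either DMSO, the vehicle control, or 100 nM IMP1088 for 24 h. IMP1088 inhibits the N-myristoyltransferases NMT1 and NMT2, the enzymes that add the lipid myristate to proteins at their first glycine. Each of the 4 groups had 4 libraries. All came from a single line carrying the transgene, and MYC level, doxycycline and estradiol cannot be told apart in this design. The labels do not say that replicates were separate cultures, so p-values measure only the spread between these samples, which may be technical.

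In B cells, tyrosine phosphorylation starts at the B cell receptor, where Src family kinases such as LYN and then SYK act. PTPRC removes an inhibitory phosphate, placed by CSK, from Src family kinases and so keeps them ready to act. PTPN6 (SHP-1) docks on phosphorylated inhibitory receptors such as CD22 and dampens the signal, while its close relative PTPN11 (SHP-2) mostly promotes signalling through RAS and ERK. Src family kinases are themselves N-myristoylated, which holds them at the membrane.

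Promoter sequences are shown for the genes on which the results turn, PTPN3 and PTPN6, and for PTPN2, which shares a motif with PTPN6. RefSeq start-site windows (GRCh38.p14, 250 bases before to 50 after a start) were found for 9 of the 10 genes, with 15 windows in all. Each window was searched on both strands for CACGTG, the E-box bound by MYC with MAX, and for GTGGGAA, which reads as TTCCCAC on the opposite strand and is the core bound by RBPJ, the DNA-binding partner of EBNA2. The motifs do not overlap each other. An E-box was found in 1 window, at an internal start of PTPN3, and 7.23% of the 34943 windows of the whole table hold one. The RBPJ-type core was found in 1 window of PTPN6 and 1 of PTPN2, against 6.24% of all windows. These matches are a description of letters in the windows and not of binding. Each stretch below is the longest run outside annotated exons within the 250 bases before a start. Stretches read 5′ to 3′ on the gene's strand, with a motif in capitals where there is one. They come from chr9:109498314-109498557 (minus strand), chr9:109428973-109429222 (minus), chr12:6946327-6946467 (plus), chr12:6951106-6951261 (plus) and chr18:12840963-12841212 (minus).
PTPN3, outermost start: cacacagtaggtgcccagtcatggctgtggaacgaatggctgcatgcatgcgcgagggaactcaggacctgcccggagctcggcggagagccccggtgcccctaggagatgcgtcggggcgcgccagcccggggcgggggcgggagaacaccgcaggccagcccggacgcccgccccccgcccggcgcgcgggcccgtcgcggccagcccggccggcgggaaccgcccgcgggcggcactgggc
PTPN3, internal start with the E-box: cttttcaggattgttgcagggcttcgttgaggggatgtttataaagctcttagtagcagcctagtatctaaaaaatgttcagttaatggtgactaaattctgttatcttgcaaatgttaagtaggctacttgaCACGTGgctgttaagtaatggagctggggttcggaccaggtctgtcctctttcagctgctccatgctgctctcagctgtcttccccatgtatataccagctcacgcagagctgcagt
PTPN6, upstream start: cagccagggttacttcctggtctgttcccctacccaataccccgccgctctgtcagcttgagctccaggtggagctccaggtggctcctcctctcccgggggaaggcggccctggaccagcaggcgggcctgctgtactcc
PTPN6, downstream start with the RBPJ-type core: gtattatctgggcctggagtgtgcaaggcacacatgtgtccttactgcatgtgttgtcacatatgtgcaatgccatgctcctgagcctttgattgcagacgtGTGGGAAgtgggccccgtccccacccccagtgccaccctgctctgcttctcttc
PTPN2, internal start with the RBPJ-type core: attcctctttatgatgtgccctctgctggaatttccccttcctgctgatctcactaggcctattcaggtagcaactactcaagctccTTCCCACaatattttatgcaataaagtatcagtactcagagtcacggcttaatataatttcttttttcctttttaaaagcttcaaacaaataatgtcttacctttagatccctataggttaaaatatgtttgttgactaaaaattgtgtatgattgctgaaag

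Libraries held from 8755296 to 13858534 reads. The values are normalized counts, that is, reads divided by a size factor for the library, and the factors ran from 0.858 to 1.33. MYC itself, which defines the groups, was at 31649 ± 2130 normalized counts in high MYC controls and 958.6 ± 48.7 in medium MYC controls (mean ± SD, n = 4 for this and every group mean). With inhibitor it was at 47542 ± 505 and 1382 ± 51.2. The B cell markers MS4A1, CD79A, CD79B, PAX5 and BLNK were detected in every group, with summed normalized counts from 22217 to 22341 in high MYC controls, 18348 to 19260 in high MYC with inhibitor, 33945 to 34668 in medium MYC controls and 30491 to 31656 in medium MYC with inhibitor. The 5 T cell markers summed to at most 240.4, with CD3D and CD8A at 3 or fewer reads in every library. CD3E, CD3G and TRAC were detected in every group. From high to medium MYC controls TRAC went from 27.8 ± 8.62 to 132.0 ± 22.2, CD3E from 37.3 ± 5.29 to 59.6 ± 10.9 and CD3G from 28.7 ± 7.51 to 21.6 ± 5.48. The 5 monocyte markers summed to at most 83.4 and the 4 epithelial markers to at most 111.8. From high to medium MYC controls the epithelial marker EPCAM went from 62.1 ± 7.04 to 13.1 ± 5.56 and CDH1 from 0.19 ± 0.38 to 55.4 ± 8.04. In the results below, a log2 change is a difference of mean log2(normalized count + 1), which understates changes of low genes, and a gene is called at a limma adjusted p-value under 0.05 over 13765 genes.

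PTPN3 (ENSG00000070159; GRCh38 chr9:109375466-109498313, minus strand) encodes a phosphatase with a FERM domain, which ties it to the membrane cortex, and a PDZ domain. High MYC controls had 23.3, 19.1, 19.9 and 15.6 normalized counts, and the high MYC libraries with inhibitor had 96.8, 76.5, 62.0 and 103.9. At medium MYC the controls had 63.6, 62.5, 62.1 and 57.4, and the libraries with inhibitor had 95.5, 87.4, 86.7 and 99.8. The high MYC controls stood below every other library, and each inhibitor group lay wholly above its own controls. With inhibitor the MYC levels overlapped.

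Mean PTPN3 was 19.5 ± 3.16 in high MYC controls and 84.8 ± 19.2 with inhibitor, a ratio of 4.35 and a log2 change of 2.05. In medium MYC controls it was 61.4 ± 2.73 and with inhibitor 92.4 ± 6.39, a change of 50.4% and a log2 change of 0.58. The difference between these log2 changes was 1.47. Between MYC levels, PTPN3 was 3.15 times as high in medium as in high MYC controls (log2 change 1.62), against 1.09 times with inhibitor (0.15). Thus the larger gap set apart the high MYC controls, where the gene had only 14 to 31 reads per library. A smaller gap lay between the medium MYC controls and the medium MYC libraries with inhibitor. The high MYC inhibitor group had the widest spread, from 62.0, within the range of the medium MYC controls, to 103.9, the highest of the 16 libraries. In bulk RNA, fewer cells with a transcript and less transcript per cell cannot be told apart.

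PTPN4 (chr2:119759631-119983818), the nearest relative of PTPN3 with the same FERM and PDZ arrangement, had another pattern. Its normalized counts ran from 341.4 to 371.9 in high MYC controls and from 337.2 to 373.2 with inhibitor. At medium MYC they ran from 234.5 to 272.2 in controls and from 215.6 to 269.2 with inhibitor. The inhibitor groups overlapped their controls at both MYC levels, and the MYC levels were apart in both treatments. The log2 change with inhibitor was -0.00 at high MYC (95% interval -0.14 to 0.14, limma adjusted p = 0.992) and -0.01 at medium MYC (-0.15 to 0.14, adjusted p = 0.961). Between MYC levels PTPN4 fell in controls, from 358.3 ± 14.6 to 250.8 ± 16.5 (log2 change -0.51, SE 0.07, limma adjusted p = 6.68e-07).

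**Figure D1:**
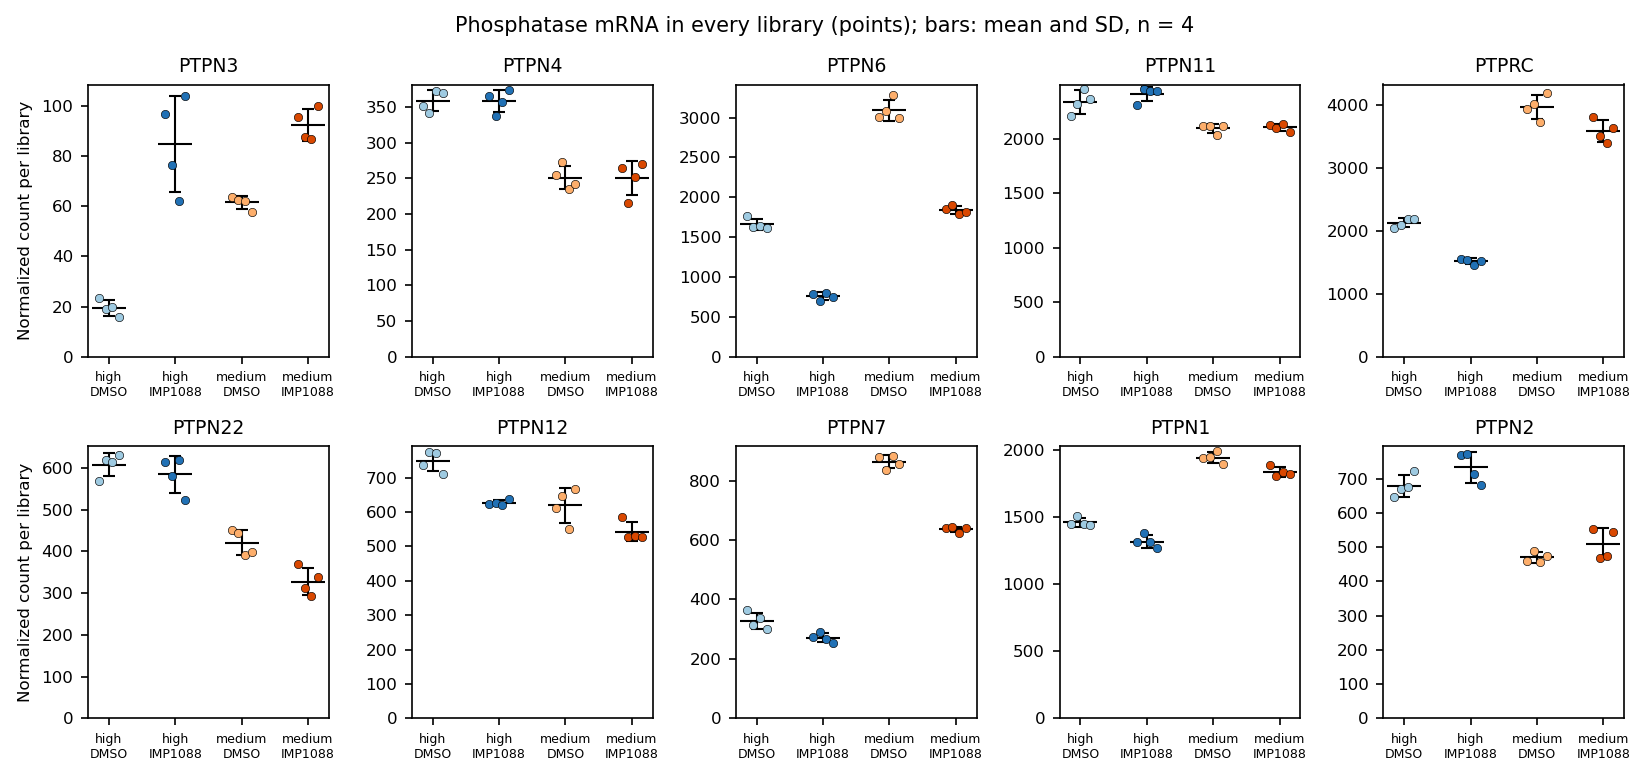
Normalized counts (y axis, linear, from 0) of the 10 phosphatase genes in each of the 16 libraries, by group (x axis); points are libraries and bars are the mean and SD of 4. PTPN3 in high MYC controls lies between 15.6 and 23.3, below every other library, and PTPN6 with inhibitor lies below its controls at both MYC levels.

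PTPN6 (ENSG00000111679; chr12:6946468-6961316, plus strand), the phosphatase that inhibitory receptors recruit, had the largest response to the inhibitor among the 9 genes tested, and it fell. High MYC controls had 1762, 1627, 1638 and 1613 normalized counts, and libraries with inhibitor had 791.5, 695.5, 802.0 and 751.5. Medium MYC controls had 3009, 3080, 3285 and 2998, and libraries with inhibitor had 1857, 1906, 1795 and 1818. Inhibitor and control libraries did not overlap at either MYC level, and every medium MYC control exceeded every other library.

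At high MYC, PTPN6 fell from 1660 ± 69.0 to 760.1 ± 48.3, which is -54.2%, or -1.13 in log2 (SE 0.04, limma adjusted p = 6.76e-14). At medium MYC it fell from 3093 ± 133 to 1844 ± 48.6, which is -40.4%, or -0.75 in log2 (SE 0.04, limma adjusted p = 2.53e-11). The fall was larger at high MYC by 0.38 on the log2 scale (difference -0.38, 95% interval -0.51 to -0.25, limma adjusted p = 0.000223). PTPN6 was higher at medium than at high MYC in controls by 0.90 and with inhibitor by 1.28 on the log2 scale (adjusted p = 2.88e-14 and 5.08e-17). Of the 5 B cell markers, 4 fell and 0 rose with inhibitor at high MYC, and 2 fell and 0 rose at medium MYC. Of all tested genes 16.3% and 14.6% were called lower in these comparisons. In controls, from high to medium MYC, MS4A1 (11652 ± 296 to 22639 ± 489 normalized counts) and PAX5 rose, which carries the summed level, while CD79A, CD79B and BLNK fell (the median over the 5 was -0.11 in log2). Of all tested genes 38.9% were called higher and 37.3% lower at medium MYC in controls. With inhibitor 3 of the 5 markers were higher and 1 lower at medium MYC, against 39.7% and 37.8% of all tested genes. The part of these markers in the PTPN6 result was not tested.

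PTPN11 (chr12:112418351-112509913), which has the same pair of SH2 domains as PTPN6, stayed within a narrow band. Its normalized counts ran from 2207 to 2462 in high MYC controls and from 2315 to 2457 with inhibitor, and from 2038 to 2123 in medium MYC controls and 2061 to 2137 with inhibitor. The inhibitor groups overlapped their controls at both levels. Its log2 change with inhibitor was 0.05 at high MYC (95% interval -0.02 to 0.11, limma adjusted p = 0.339) and 0.01 at medium MYC (-0.06 to 0.07, adjusted p = 0.931). Between MYC levels in controls PTPN11 fell by 0.16 on the log2 scale (SE 0.03, limma adjusted p = 0.000200). Its exons share 111 bases with RPL6 on the opposite strand, and use of strand in counting is not given in the sources used here, so reads of the overlap are uncertain. Of the 5 PTPN11 pseudogenes in the table, PTPN11P3 was the highest, at 10.4 normalized counts at most.

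The ratio of PTPN6 to PTPN11 within a library does not depend on scaling. This ratio was chosen after the values were seen and is given without a test. It was 0.712 ± 0.0599 in high MYC controls and 0.315 ± 0.0258 with inhibitor, and 1.47 ± 0.0926 in medium MYC controls and 0.876 ± 0.0278 with inhibitor. PTPN6 reads thus outnumbered those of PTPN11 in the medium MYC controls only, among these 4 groups.

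PTPRC (ENSG00000081237; chr1:198638457-198757476), the phosphatase that primes Src family kinases, also fell with inhibitor. High MYC controls had 2048, 2088, 2194 and 2194 normalized counts, and libraries with inhibitor had 1563, 1541, 1459 and 1521. Medium MYC controls had 3946, 4026, 3731 and 4192, and libraries with inhibitor had 3809, 3505, 3391 and 3641. The groups were apart at high MYC and overlapped at medium MYC, where 1 inhibitor library exceeded the lowest control.

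At high MYC, PTPRC fell from 2131 ± 74.7 to 1521 ± 44.5 (log2 change -0.49, SE 0.04, limma adjusted p = 6.88e-09). At medium MYC it fell from 3974 ± 192 to 3586 ± 180 (-0.15, SE 0.04, limma adjusted p = 0.00731), a call lost under quantile normalization (-0.10, adjusted p = 0.0723). The response at high MYC was the larger fall (difference -0.34, 95% interval -0.45 to -0.22, limma adjusted p = 0.000316). PTPRC was higher at medium MYC by 0.90 in controls and by 1.24 with inhibitor on the log2 scale (adjusted p = 5.76e-15 and 1.91e-17). Of the 5 B cell markers, 2 were higher and 3 lower at medium MYC in controls, against 38.9% and 37.3% of all tested genes. With inhibitor 3 were higher and 1 lower at medium MYC, against 39.7% and 37.8%. These markers are described with PTPN6, and their part in the PTPRC result was not tested.

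The ratio of PTPN6 to PTPRC, also chosen after the values were seen and not tested, was 0.780 ± 0.0567 in high MYC controls and 0.781 ± 0.0704 in medium MYC controls. With inhibitor it ran from 0.451 to 0.550 at high MYC and was 0.515 ± 0.0261 at medium MYC. The control groups overlapped each other in this ratio, the inhibitor groups did too, and no inhibitor library reached a control library (highest 0.550 against lowest 0.715).

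**Figure D2:**
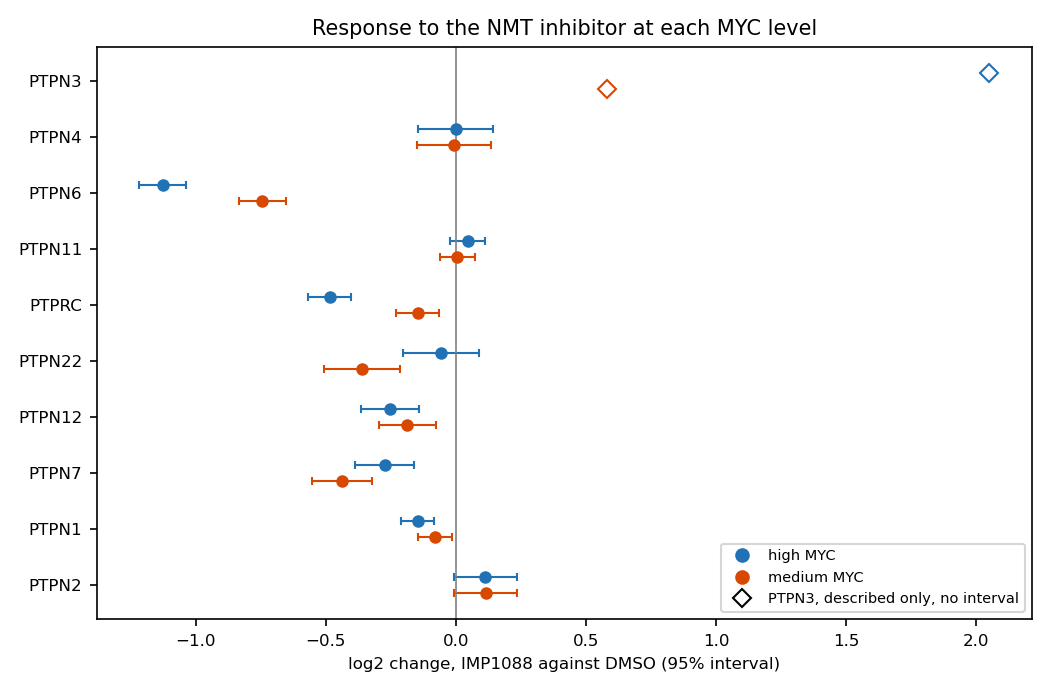
Log2 change with IMP1088 against DMSO (x axis) for each gene (y axis) at high and at medium MYC; filled points are limma estimates with 95% intervals, and the open PTPN3 diamonds are described without an interval. PTPN6 lies farthest to the left at -1.13 and -0.75, and PTPN4 and PTPN11 lie near 0 at both levels.

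PTPN22 and PTPN12 belong to the group of phosphatases with a proline-rich PEST tail. PTPN22 (chr1:113813811-113871759) partners with CSK and restrains antigen receptor signalling in lymphocytes. High MYC controls had 568.6, 617.7, 613.6 and 631.5 normalized counts and libraries with inhibitor 614.0, 581.2, 618.7 and 523.9. Medium MYC controls had 450.6, 443.5, 391.2 and 398.0 and libraries with inhibitor 369.3, 310.9, 292.4 and 337.8. Treatment groups overlapped at high MYC and were apart at medium MYC.

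With inhibitor at medium MYC, PTPN22 fell from 420.8 ± 30.5 to 327.6 ± 33.5 (log2 change -0.36, SE 0.07, limma adjusted p = 0.000443). At high MYC its log2 change was -0.06 (95% interval -0.20 to 0.09, limma adjusted p = 0.592). The difference between the responses, 0.30 (95% interval 0.10 to 0.51), did not pass over all genes (limma adjusted p = 0.0616). It passed under 6 of 28 alternatives, among them DESeq2 (adjusted p = 0.0393) and the fits without high MYC inhibitor replicate 4 (0.0269), medium MYC control replicate 3 (0.0335) or medium MYC inhibitor replicate 1 (0.0181). Between MYC levels PTPN22 fell by 0.53 in controls and by 0.84 with inhibitor on the log2 scale (adjusted p = 5.52e-07 and 4.12e-10). Its exons share 105 bases with AL137856.1 on the opposite strand, with the same uncertainty as for PTPN11.

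PTPN12 (chr7:77537275-77640071), which acts on cytoskeletal and adhesion proteins, had 737.3, 774.9, 770.4 and 710.8 normalized counts in high MYC controls and 622.6, 626.7, 620.5 and 638.2 with inhibitor. At medium MYC the controls had 611.2, 646.4, 549.6 and 668.0 and the libraries with inhibitor 584.9, 527.5, 530.6 and 527.4. The groups were apart at high MYC and overlapped at medium MYC. PTPN12 fell with inhibitor by 0.25 (SE 0.05, limma adjusted p = 0.00107) and 0.19 (SE 0.05, adjusted p = 0.0116) on the log2 scale, and the second call is lost without medium MYC control replicate 4 (-0.15, adjusted p = 0.0548). In controls it fell from high to medium MYC by 0.28 on the log2 scale (limma adjusted p = 7.65e-05).

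PTPN7 (chr1:202147013-202161588) is a phosphatase of blood cells that acts on the MAP kinases ERK and p38. Its normalized counts were 363.0, 314.5, 336.6 and 300.6 in high MYC controls and 274.2, 291.7, 265.3 and 253.6 with inhibitor. In medium MYC controls they were 880.4, 837.3, 881.3 and 855.9 and with inhibitor 639.6, 643.7, 624.6 and 639.3. All 4 groups were apart from each other. PTPN7 had the largest difference between MYC levels in controls among the 9 genes, rising by 1.39 on the log2 scale (SE 0.05, limma adjusted p = 8.11e-16). With inhibitor it fell by 0.27 at high MYC (SE 0.05, limma adjusted p = 0.000679) and by 0.44 at medium MYC (SE 0.05, adjusted p = 2.70e-06). Those responses differed by 0.16 (95% interval 0.0030 to 0.33), which did not pass over all genes (limma adjusted p = 0.224).

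PTPN1 and PTPN2 are close relatives with a shared catalytic domain. PTPN1 sits on the endoplasmic reticulum and acts on receptor kinases, and PTPN2 acts on JAK kinases and STAT factors. PTPN1 (chr20:50510321-50585241) had 1450, 1505, 1448 and 1437 normalized counts in high MYC controls and 1312, 1379, 1312 and 1269 with inhibitor. At medium MYC it had 1938, 1946, 1994 and 1892 in controls and 1885, 1805, 1834 and 1818 with inhibitor. Inhibitor libraries lay below their controls at both levels. At high MYC PTPN1 fell by 0.15 on the log2 scale (SE 0.03, limma adjusted p = 0.00113). At medium MYC its log2 change was -0.08 (95% interval -0.15 to -0.02, limma adjusted p = 0.0594), a value that passed under 5 of 29 alternatives, with the GC correction lowest at an adjusted p of 0.0197. PTPN1 exons share 138 bases with AL133230.1 on the opposite strand.

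PTPN2 (chr18:12785478-12929643) ran from 647.0 to 724.2 normalized counts in high MYC controls, 680.9 to 773.1 with inhibitor, 456.0 to 490.6 in medium MYC controls and 469.9 to 554.6 with inhibitor. Treatment groups overlapped at both levels. Its log2 change with inhibitor was 0.11 at high MYC (95% interval -0.01 to 0.23, limma adjusted p = 0.169) and 0.11 at medium MYC (-0.01 to 0.24, adjusted p = 0.164). Between MYC levels in controls the relatives went opposite ways. PTPN1 rose by 0.41 on the log2 scale (limma adjusted p = 8.08e-11) and PTPN2 fell by 0.53 (adjusted p = 4.02e-08). The pseudogenes PTPN2P1 and PTPN2P2 reached at most 1.12 and 2.57 normalized counts in any library.

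Counted over the 9 genes tested, 5 fell and 0 rose with inhibitor at high MYC (PTPN6, PTPRC, PTPN7, PTPN12, PTPN1), against 26.8% of all tested genes called, 10.5% higher and 16.3% lower. Of all genes, 1442 were called higher and 2247 lower, a split that became 1727 and 1770 under quantile normalization. The median log2 change was -0.15 over the 9 genes and -0.02 over all 13765. At medium MYC again 5 fell and 0 rose (PTPN6, PTPN7, PTPN22, PTPN12, PTPRC), against 26.3% called, 11.7% higher and 14.6% lower, with medians of -0.15 and -0.01. Groups did not overlap for 5 of the 9 at high MYC and 4 of the 9 at medium MYC, against 26.7% and 27.9% of all tested genes. The comparisons at high and at medium MYC share no library, but a single fit took the spread from all 16 libraries. Their calls are therefore not independent.

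The response differed between MYC levels for 2 of the 9, PTPN6 and PTPRC, against 8.63% of all tested genes. For the other genes the difference did not pass, at 0.30 for PTPN22, 0.16 for PTPN7 and between -0.07 (PTPN12, PTPN1) and 0.04 (PTPN11) for the rest. The median absolute difference was 0.07 for the 9 genes and 0.13 for all genes. Between MYC levels in controls all 9 were called, 4 higher at medium MYC (PTPN7, PTPRC, PTPN6, PTPN1) and 5 lower (PTPN22, PTPN2, PTPN4, PTPN12, PTPN11). That comparison called 76.2% of all tested genes, 38.9% higher and 37.3% lower, and 69.2% had groups without overlap. The median absolute log2 change was 0.53 for the 9 genes and 0.50 for all genes, so the size of change was near that of the table at large. With inhibitor all 9 were again called, with 4 higher and 5 lower, against 77.5% of all genes, 39.7% higher and 37.8% lower, and 72.6% with groups without overlap. On the log2 scale PTPN7 rose there by 1.23 and PTPN1 by 0.48, and PTPN2 fell by 0.53, PTPN4 by 0.52, PTPN12 by 0.21 and PTPN11 by 0.19 (limma adjusted p at most 0.00124). The groups of all 9 were without overlap in both comparisons of MYC levels.

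**Figure D3:**
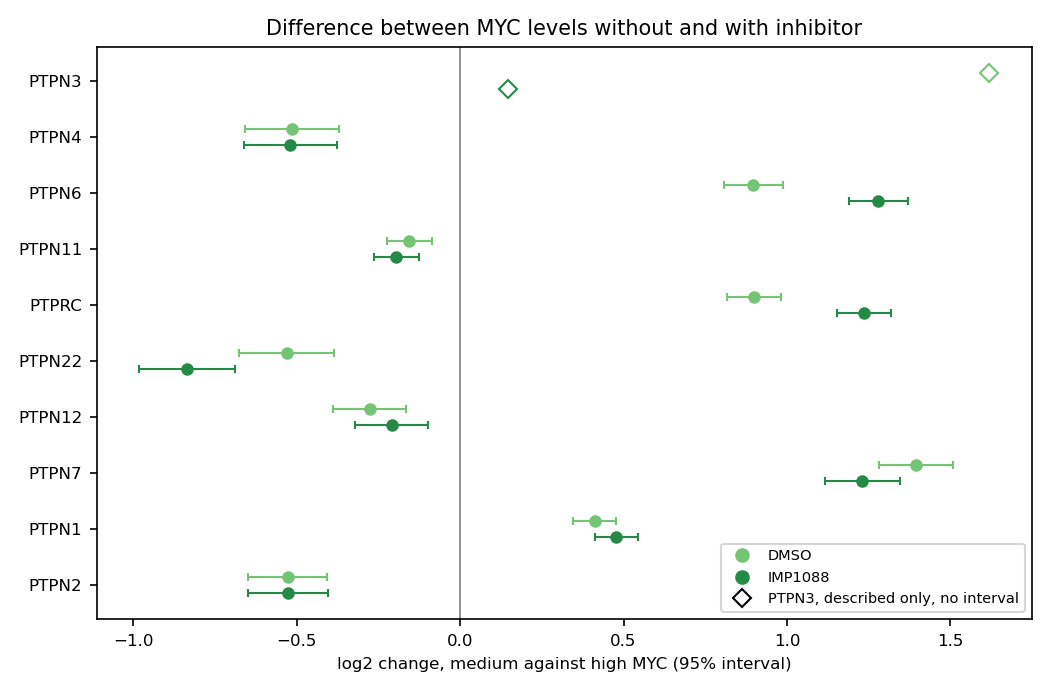
Log2 change from high to medium MYC (x axis) for each gene (y axis) in DMSO controls and in libraries with IMP1088; filled points are limma estimates with 95% intervals, and open diamonds show PTPN3 without an interval. PTPN7, PTPN6, PTPRC and PTPN1 lie right of 0 in both treatments and the other tested genes left of it, while PTPN3 lies at 1.62 in controls and 0.15 with inhibitor.

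Levels per kilobase of annotated exon compare only roughly between genes, because the length joins the exons of all annotated transcripts. On this scale PTPN3 was the lowest of the 10 in every group. It stood at 1.95 ± 0.316 normalized counts per kb in high MYC controls, 8.48 ± 1.92 with inhibitor, 6.15 ± 0.273 in medium MYC controls and 9.24 ± 0.639 with inhibitor. The next lowest, PTPN4, was at 28.7 ± 1.17 and 20.1 ± 1.32 per kb in high and medium MYC controls and did not overlap PTPN3.

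In high MYC controls the order per kb from the top was PTPN1 (361.3), PTPN11 (333.1), PTPN6 (331.4), PTPRC (232.4), PTPN22 (135.0), PTPN12 (134.9), PTPN2 (77.9), PTPN7 (55.7), PTPN4 and PTPN3. PTPN11 and PTPN6 overlapped each other, as did PTPN22 and PTPN12. In medium MYC controls PTPN6 led at 617.5 per kb, followed by PTPN1 (480.7), PTPRC (433.4), PTPN11 (298.9), PTPN7 (146.2), PTPN12 (111.6), PTPN22 (93.5) and PTPN2 (54.0). Only PTPN12 and PTPN22 overlapped as neighbours in that group. With inhibitor at high MYC, PTPN6 stood at 151.8 per kb, overlapping PTPRC at 165.9, and the leaders PTPN11 (343.5) and PTPN1 (326.1) overlapped each other. With inhibitor at medium MYC, PTPN1 led at 454.2 per kb, and PTPRC (391.2) and PTPN6 (368.2) overlapped.

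**Figure D4:**
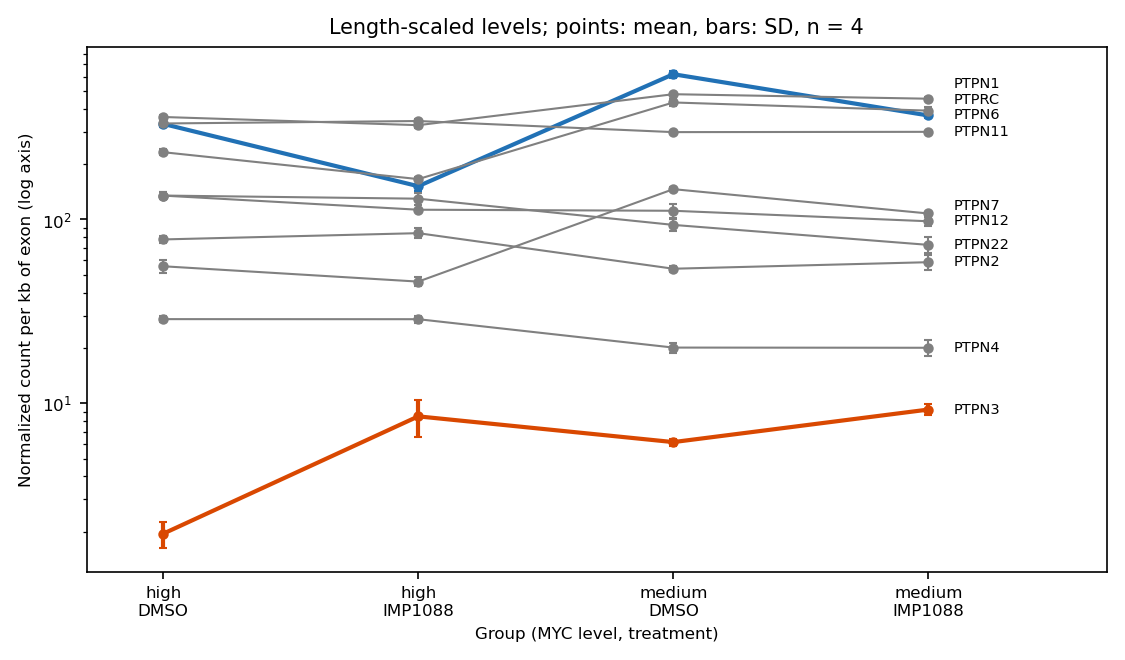
Normalized counts per kb of exon (y axis, log scale) of the 10 genes in the 4 groups (x axis); points are means and bars SD of 4 libraries. PTPN3 is the lowest line in every group, between 1.95 and 9.24 per kb, and PTPN6 goes from 331.4 in high MYC controls to 617.5 in medium MYC controls and lower with inhibitor at both levels.

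Genes with a pattern like that of PTPN3 were ranked by the root mean square difference of group means of log2(normalized count + 1), centred on each gene's own mean, over the 4 groups, among 10843 genes with a mean of at least 50. Nearest was IRF2-DT, a noncoding transcript, at a difference of 0.23, with 22.2 ± 6.21 normalized counts in controls and 61.3 ± 8.52 with inhibitor at high MYC, and 61.6 ± 2.28 and 97.5 ± 5.66 at medium MYC. BMP2K-DT, another noncoding transcript, was at 0.31, with 28.9 ± 3.54, 74.2 ± 13.7, 61.4 ± 3.94 and 77.5 ± 8.79 in the same order. In both the high MYC controls were lowest, which follows from ranking genes by likeness to the PTPN3 group means. BMS1P4-AGAP5 (0.29) and RGPD6 (0.33) also ranked among the nearest 5, but they belong to families of near-identical copies and are uncertain. Their SDs in high MYC controls were 26.2 and 44.1 around means of 32.1 and 56.6. The fifth was ENSG00000279529, at 0.38. None of the 5 was another phosphatase.

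The cytoplasmic class has 8 further genes in the table. Of these, 5 were tested, and PTPN5 had 0 reads in every library, PTPN20 at most 1 and PTPN21 at most 2. With inhibitor 0 rose and 1 fell at high MYC, where 16.3% of all tested genes were called lower, and 0 rose and 2 fell at medium MYC, against 14.6%. PTPN9, a phosphatase of secretory vesicles, was the one that fell at high MYC, from 328.8 ± 6.26 to 269.7 ± 18.8 normalized counts (-0.29 in log2, limma adjusted p = 0.000485), and it fell at medium MYC by 0.29 too (adjusted p = 0.000408). PTPN14 fell at medium MYC by 0.16 (limma adjusted p = 0.0164). Between MYC levels in controls 3 rose, against 38.9% of all tested genes, PTPN9 (1.01 in log2, limma adjusted p = 3.06e-13) and PTPN18 (0.45, adjusted p = 5.05e-06) among them, and PTPN13 fell (-0.35, adjusted p = 2.77e-09). The median log2 change with inhibitor at high MYC was -0.16 over these 5 and -0.02 over all genes.

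Among 19 further receptor phosphatases 10 were tested, and the other 9 had at most 5 reads in any library. With inhibitor 0 rose and 4 fell at high MYC, and 0 rose and 3 fell at medium MYC, against 16.3% and 14.6% of all tested genes called lower. PTPRJ (CD148), which like PTPRC acts on Src family kinases, fell from 249.0 ± 19.0 to 99.4 ± 15.7 normalized counts at high MYC (-1.33 in log2, SE 0.10, limma adjusted p = 1.18e-09). At medium MYC it fell from 284.8 ± 17.1 to 182.2 (-0.64, SE 0.10, adjusted p = 2.41e-05). PTPRS fell as well, by 0.60 and 0.33 on the log2 scale (limma adjusted p = 2.92e-06 and 0.00227). In controls, 3 of the 10 rose from high to medium MYC and 5 fell, against 38.9% and 37.3% of all tested genes. One that rose, PTPRU, had 0 to 5 reads per library at high MYC and passed the filter only through the medium MYC groups, so its direction was fixed by the filter. Among those that fell was PTPRG, from 1219 ± 17.5 to 660.6 ± 25.0 (-0.88, limma adjusted p = 6.96e-16). The response differed between MYC levels for 1 of the 10, near the 8.63% of all tested genes.

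All 19 receptors and adaptors listed as recruiting PTPN6 or PTPN11 passed the filter. CD300A and LILRB1 did so only through the medium MYC groups, and CD300A never exceeded 2 reads at high MYC. LAIR1 also passed only through the medium MYC groups, at 66.7 ± 7.71 normalized counts in controls and 42.6 ± 6.10 with inhibitor. At high MYC it had 14.2 ± 1.78 in controls and 5.51 ± 2.26 with inhibitor (2 to 8 reads per library). With inhibitor 1 rose and 9 fell at high MYC, against 10.5% and 16.3% of all tested genes. Neither CD300A nor LILRB1 was among them. At medium MYC 2 rose and 6 fell, CD300A among the latter, against 11.7% and 14.6%. The median log2 change was -0.41 at high MYC and -0.15 at medium MYC, against -0.02 and -0.01 over all genes. CD22, a sialic acid receptor that recruits PTPN6, fell from 2023 ± 48.7 to 1329 ± 53.0 normalized counts at high MYC (-0.61, SE 0.03, limma adjusted p = 5.21e-12) and by 0.33 at medium MYC (adjusted p = 3.10e-08). FCRL5, an Fc receptor-like protein, fell from 3187 ± 69.4 to 1674 ± 26.2 at high MYC (-0.93, limma adjusted p = 4.39e-15) and by 0.35 at medium MYC (adjusted p = 1.16e-08). GAB1, an adaptor that recruits PTPN11, rose at medium MYC by 0.35 (limma adjusted p = 2.67e-05). Of the 19, 8 had a response lower at high than at medium MYC and 0 higher, against 5.33% and 3.31% of all genes. Between MYC levels in controls 15 rose and 3 fell, against 38.9% and 37.3% of all tested genes. The rise of CD300A and LILRB1, counted in the 15, was fixed by the filter. That of LAIR1 was strongly favoured by it, so none of these rises adds weight to the count. FCRL3 rose there from 30.1 ± 6.39 to 1862 ± 51.6 (5.93, limma adjusted p = 3.82e-20).

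Several of these phosphatases act on the kinases next to the B cell receptor. Of 11 Src family, Syk family and Csk kinases 10 were tested, and 0 rose and 7 fell at high MYC, and 0 rose and 8 fell at medium MYC, against 16.3% and 14.6% of all tested genes called lower. LYN, the main Src family kinase of B cells, fell from 1907 ± 62.6 to 1399 ± 20.9 normalized counts at high MYC (-0.45, SE 0.03, limma adjusted p = 2.49e-10). CSK, which opposes PTPRC, fell at both levels, by 0.53 and 0.41 on the log2 scale (limma adjusted p = 2.30e-09 and 6.99e-08). SYK fell at medium MYC by 0.31 (limma adjusted p = 6.11e-08). Between MYC levels in controls 9 of the 10 rose, against 38.9% of all tested genes, with SRC going from 67.3 ± 10.2 to 808.6 ± 53.2 (3.58 in log2, limma adjusted p = 5.72e-18).

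Of the 11 JAK kinases and STAT factors, on which PTPN1, PTPN2 and PTPN6 act, 10 were tested. With inhibitor 0 rose and 6 fell at high MYC, and 0 rose and 4 fell at medium MYC, against 16.3% and 14.6% of all tested genes called lower. STAT5B fell from 712.9 ± 32.2 to 607.9 ± 20.8 normalized counts at high MYC (-0.23 in log2, SE 0.05, limma adjusted p = 0.000608) and by 0.69 at medium MYC (adjusted p = 1.75e-10). In controls all 10 tested rose from high to medium MYC, against 38.9% of all tested genes, with JAK1 going from 1334 ± 37.0 to 8472 ± 154 (2.67, limma adjusted p = 2.55e-25). In that comparison PTPN1 rose as well and PTPN2, which acts on JAK1, fell.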

How the data were processed

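The members and all gene lists were chosen with earlier results of these data known. The authors deposited normalized counts, here treated as a signal that is never negative, for 58051 Ensembl identifiers in 16 libraries. Each library has its own column of values, and the column headers do not speak of pooling. The submitters' processing notes name STAR 2.5.2a, RSEM 1.2.31, DESeq2 1.16.1 and GRCh38, without role or order. Use of strand and the annotation are not given in the sources used here. RNA was isolated with miRNeasy, made into cDNA with a Nugen kit and read on a HiSeq, per the labels' protocols. From the deposited signal, 100% of values above 0 came back as whole reads (tolerance 0.01), with steps equal to median-of-ratios size factors. Libraries held 8755296 to 13858534 reads, without molecular identifiers, so this depth speaks to counting error only.

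Symbols matched 56948 identifiers and GENCODE 29 positions 57447. The main test was limma 3.58.1 (R 4.3.3) with a mean trend on log2(value + 1), for 13765 genes with a mean of at least 10. All 16 libraries entered 1 fit with 4 group means, Benjamini-Hochberg adjustment and a two-sided threshold of 0.05. Named genes were all 10 members, up to 3 genes of each list with the smallest p-value per comparison among those called (some are not reported here, as is 1 B cell marker), and the 5 nearest to PTPN3. The fit was also run on simulated counts for 13765 genes, with log2 changes of 0.5, 1 and 2 placed in 67, 67 and 66 genes. With inhibitor at high MYC, 71.6%, 91.0% and 98.5% of these were recovered, and 17 genes without a change were called. Recovery was lower for the difference between MYC levels, at 37.3%, 77.6% and 93.9%, where 3 unchanged genes were called. Every simulated gene had the same spread beyond counting error, while real genes differ in spread, so these rates hold for that setting only. Alternatives were equal totals, quantile normalization, other pseudocounts and filters, no trend, compared groups only, a replicate block, a GC correction (loess, 99.48% of genes with a value), edgeR 4.0.16 and DESeq2 1.42.0 on the whole reads, and 16 fits with 1 library omitted.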

Additional observations from a re-analysis of the deposited data

Results flagged for a closer look

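Within groups of 4, 4 values of members stood apart from the other 3 by Dixon's criterion at 95%, which chance meets in about 1 in 20 groups, and 40 groups were looked at. PTPN6 had a highest library at 1762 normalized counts in high MYC controls. PTPN11 had a lowest library at 2315 with inhibitor at high MYC and at 2038 in medium MYC controls. PTPN12 had a highest library at 584.9 with inhibitor at medium MYC. Responses to the inhibitor differed between MYC levels, by the test of the difference itself, for PTPN6 (-0.38 on the log2 scale, limma adjusted p = 0.000223) and PTPRC (-0.34, adjusted p = 0.000316). In both the fall was larger at high MYC, and both also fell at medium MYC.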

How the results depend on the processing

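Counts of members called were 5 at high MYC in all 29 alternatives, 4 to 6 at medium MYC, 2 to 3 for the difference in response (28 alternatives), and 9 in both comparisons of MYC levels. Counts of all genes called stayed within 1.5 times the reported count, from 3163 to 3944 at high MYC, 3202 to 3886 at medium MYC and 1013 to 1637 for the difference. No called member changed sign. Leaving out 1 library gave 5 members at high MYC, 4 to 6 at medium MYC and 2 to 3 for the difference. With the replicate block, 3496, 3442 and 1026 genes were called and no member call changed. Same-numbered libraries did not deviate together (mean correlation -0.07 at high and -0.02 at medium MYC), so the numbers are not taken as pairs. Log2 changes of PTPN3 were smaller with a pseudocount of 10, at 1.67 for the inhibitor at high MYC, 1.15 for the difference and 1.28 between MYC levels in controls, because a pseudocount compresses low values, and PTPN3 had no value with a filter at a mean of 100. PTPN22 also passed for the difference with that filter (adjusted p = 0.0454) and with the GC correction (0.0262). PTPN1 also passed at medium MYC with that filter (0.0497), with the GC correction and replicate block (0.0213), and without high MYC inhibitor replicate 2 (0.0498) or medium MYC inhibitor replicate 1 (0.0474).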
